A study of Mus musculus with 7 samples.

Results

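Klf1, Tal1, Nfe2 and Hemgn encode nuclear proteins of the red cell lineage, and their transcripts were followed over 7 arrays of mouse bone marrow. They were taken by name: of the 14229 probe sets annotated to 1 gene symbol (8378 genes), 4 carried a member's symbol, 1 for each of the 4 genes. All the arrays came from recipients of a bone marrow transplant. Marrow carrying a mock control transgene gave 3 arrays and marrow carrying an ABCG2 transgene gave 2, both unsorted. Marrow carrying EZH2-Mt, from an animal or animals described as MDS-like (MDS is taken as myelodysplastic syndrome), was sorted on GFP, a green fluorescent protein, into GFP-negative and GFP-positive cells with 1 array each. EZH2 is the methyltransferase of Polycomb repressive complex 2, and ABCG2 is a drug efflux pump. The sources used here do not give the strain, age or sex of the mice, the mutation abbreviated Mt, what GFP marks, or the share of donor cells in each marrow. No label ties an array to an animal, so the spread behind each p-value is that between arrays and may be technical, and whether the 2 fractions share a mouse is unknown. In the EZH2-Mt comparisons with mock, the transgene, the disease-like state and the sort cannot be told apart. The titles of both ABCG2 arrays carry the tag ser2, which no mock title carries and whose meaning is not given. In the ABCG2 comparison with mock, the transgene and whatever this tag marks cannot be told apart.

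Red cell formation is run by a small set of DNA-binding factors that act together. Tal1 is a basic helix-loop-helix protein that binds E-boxes as a dimer with an E protein, in a complex with Lmo2, Ldb1 and the zinc finger factor Gata1, and it is also needed for blood stem cell and megakaryocyte formation. Klf1 is a zinc finger protein that binds CACCC boxes and switches on adult beta-globin, heme synthesis and red cell membrane genes. Nfe2 is the p45 subunit of NF-E2, a leucine zipper factor that pairs with small Maf proteins, acts on the globin genes and is required for platelet release by megakaryocytes. Hemgn, or hemogen (also EDAG), is a nuclear protein of developing red cells whose gene is a known Gata1 target.

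The sequence before the start of each gene is shown because Klf1, Tal1 and Hemgn share a regulator, Gata1. Its own transcript was not among the genes measured, and its part in the values was not tested. The RefSeq promoter table (build GRCm38.p6) held windows for 3 of the 4 genes and none for Nfe2. The absence of Nfe2 here therefore says nothing on whether Gata1 regulates it. Klf1 starts at base 84901982 of chromosome 8, Tal1 at base 115056426 of chromosome 4 for the first of its 2 listed starts, and Hemgn at base 46404183 of chromosome 4 on the minus strand. The 250 bases before each start follow, 5′ to 3′ on the gene's strand, with matches to a GATA motif in capitals.
Klf1, chr8:84901732-84901981, plus strand: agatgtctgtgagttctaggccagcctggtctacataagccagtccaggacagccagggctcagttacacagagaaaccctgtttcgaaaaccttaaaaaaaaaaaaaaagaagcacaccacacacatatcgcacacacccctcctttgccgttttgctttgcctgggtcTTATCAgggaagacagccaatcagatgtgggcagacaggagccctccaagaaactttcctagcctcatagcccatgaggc
Tal1, chr4:115056176-115056425, plus strand: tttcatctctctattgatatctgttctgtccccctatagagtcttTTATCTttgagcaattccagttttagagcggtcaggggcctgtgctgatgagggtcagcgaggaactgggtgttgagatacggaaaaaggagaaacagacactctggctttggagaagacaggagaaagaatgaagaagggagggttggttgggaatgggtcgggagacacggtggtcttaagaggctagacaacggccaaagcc
Hemgn, chr4:46404184-46404433, minus strand: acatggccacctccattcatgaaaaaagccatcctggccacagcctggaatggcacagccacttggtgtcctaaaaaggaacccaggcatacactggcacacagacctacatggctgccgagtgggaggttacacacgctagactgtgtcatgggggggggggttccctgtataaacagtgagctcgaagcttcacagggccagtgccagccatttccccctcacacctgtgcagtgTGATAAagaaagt
The GATA motif was searched as GATAA or GATAG after an A or a T, on both strands, in windows that reach from 250 bases before to 50 bases after the start. In Hemgn, TGATAA lay at -13 to -8 from the start and AGATAA at 29 to 34 after it. In Klf1 the match TTATCA lay at -80 to -75, and in Tal1 the match TTATCT lay at -205 to -200. At least 1 such match is common, present in 29.8% of all 32851 windows, while 2 or more, as in Hemgn, were present in 7.77%. The box bound by Klf1 (CACCC) matched 2 times in Klf1, 1 time in Tal1 and 0 times in Hemgn, against 57.5% of all windows with a match. An E-box written CAGATG or CAGCTG matched once in each of these 3 windows, against 30.6% of all windows, and in Klf1 it lay at -59 to -54. The NF-E2 core TGANTCA matched in none of them, against 7.81% of all windows. The second Tal1 start, at base 115057811, had 0 matches to these 4 motifs. A match describes letters and does not show binding.

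The arrays carry relative values: each probe set had been centred so that its median over the 7 arrays is 0, on a log scale taken here as log2. Absolute levels, and levels of one gene against another, are therefore not available. Against the mock arrays, Nfe2 was far lower on the ABCG2 arrays and level in both EZH2-Mt fractions. Klf1, Tal1 and Hemgn stood well above the mock arrays in the GFP-positive EZH2-Mt fraction, and of these 3 Tal1 was lower past the threshold in ABCG2 marrow.

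**Figure D1:**
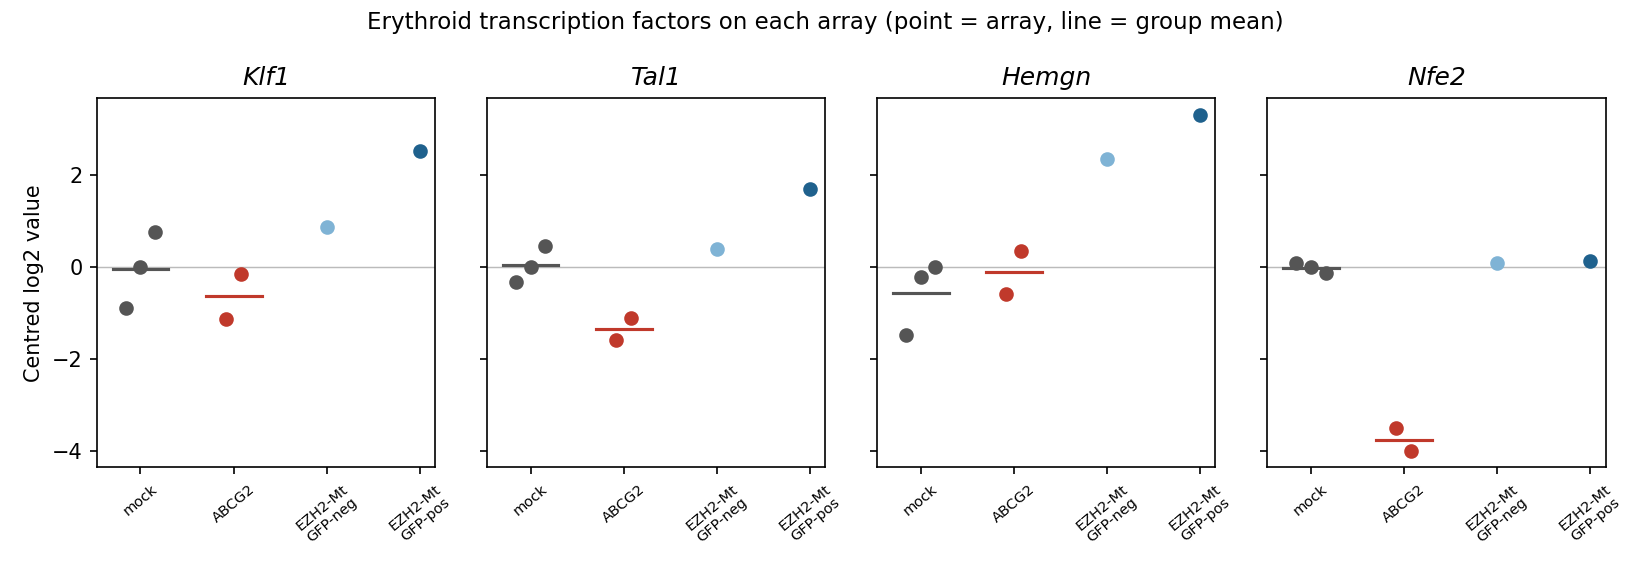
Centred log2 value (vertical axis) of each factor on each array, by group (horizontal axis); points are arrays and lines are means of groups with over 1 array. Nfe2 on the ABCG2 arrays lies at -3.51 and -4.00, far below the other 5 arrays, while Hemgn, Klf1 and Tal1 are highest on the GFP-positive array at 3.30, 2.51 and 1.69.

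Nfe2 gave the tightest groups. Its centred log2 values were 0.07, 0 and -0.14 on the mock arrays and -3.51 and -4.00 on the ABCG2 arrays. The GFP-negative fraction stood at 0.09 and the GFP-positive fraction at 0.11. Both ABCG2 arrays thus lay more than 3 log2 below every other array, and the remaining 5 arrays spanned little. The mock mean was -0.02 ± 0.11 (SD, n = 3) and the ABCG2 mean -3.75 ± 0.34 (SD, n = 2). Nfe2 fell by 3.73 ± 0.19 log2 (limma, standard error, adjusted p = 4.15e-05), which is 13.3-fold if the logarithm is to base 2. Of 16255 probe sets, Nfe2 had the 222nd lowest difference. The SD over all probe sets was 1.06 and 1.13 on the ABCG2 arrays and 0.33 to 0.54 on the others, and quantile normalization makes it alike; the Nfe2 difference then shrank to -1.85 (adjusted p = 0.00154).

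Tal1 fell as well. Its values were -0.33, 0 and 0.44 on mock arrays and -1.60 and -1.11 on ABCG2 arrays, so the groups did not overlap. The difference was -1.39 ± 0.27 log2 (limma, adjusted p = 0.00509), or 2.62-fold. With quantile normalization it was -0.88 and no longer passed (adjusted p = 0.130).

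Klf1 values on the mock arrays were spread widely, at -0.89, 0 and 0.75, and the ABCG2 arrays at -1.14 and -0.16 overlapped them. The Klf1 difference of -0.60 ± 0.50 log2 did not pass (limma, adjusted p = 0.343), with a 95% interval from -1.81 to 0.61. It was -0.11 without ABCG2 replicate 1, -1.09 without ABCG2 replicate 2, -0.20 without mock replicate 3 and -1.02 without mock replicate 1. Hemgn was similar in spread, at -1.49, -0.22 and 0 on mock arrays and -0.59 and 0.35 on ABCG2 arrays. The Hemgn difference of 0.45 ± 0.49 log2 did not pass either (limma, adjusted p = 0.467; 95% interval -0.73 to 1.63). Its sign rested on single arrays, with -0.015 without mock replicate 1 and -0.021 without ABCG2 replicate 2. In all, 2 of 4 members were lower past the threshold and 0 were higher, where 25.3% of all probe sets were called lower and 31.5% higher. Likewise 2 of 4 members lay below every mock array on both ABCG2 arrays, against 32.6% of all probe sets. With so many calls in this comparison, the count of members is near the background, and what sets Nfe2 apart from the other members is the size of its difference.

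**Figure D2:**
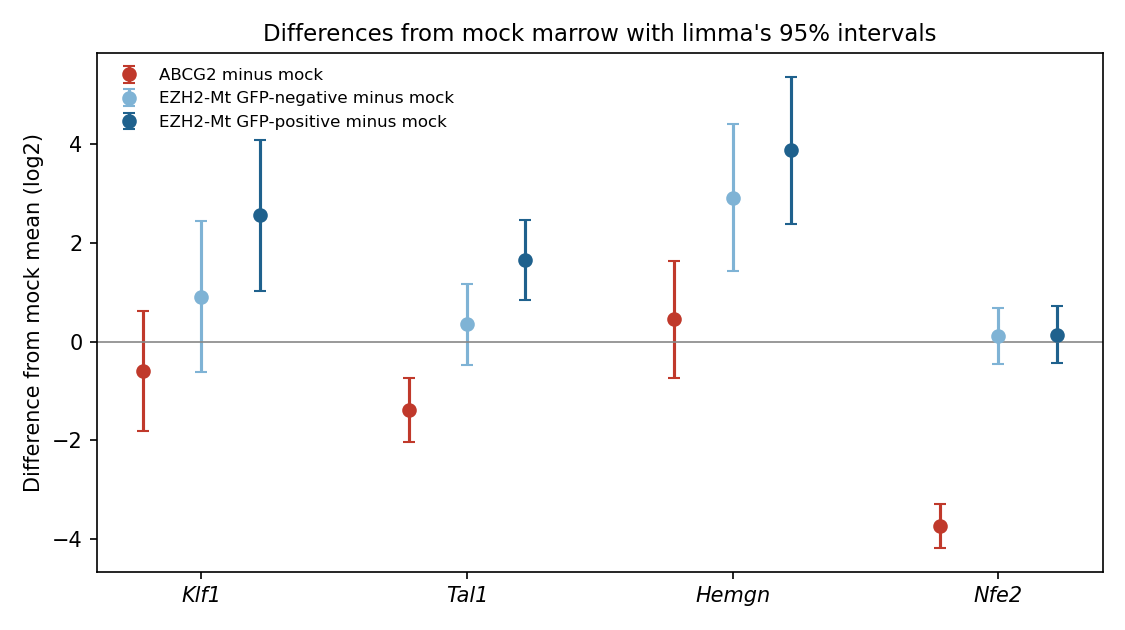
Difference of each group from the mock mean in log2 (vertical axis) for the 4 factors (horizontal axis); bars are limma's 95% intervals, which for the single-array EZH2-Mt fractions take their spread from the mock and ABCG2 arrays. The intervals of Nfe2 and Tal1 in ABCG2, of Hemgn in the GFP-negative fraction, and of Klf1, Tal1 and Hemgn in the GFP-positive fraction do not reach 0. They are not adjusted for the number of probe sets. Hemgn in GFP-negative and Klf1 in GFP-positive cells did not pass the adjusted threshold.

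In EZH2-Mt marrow the order of the factors was another one. Hemgn stood at 2.34 in the GFP-negative and 3.30 in the GFP-positive fraction, above a highest mock value of 0. Its difference from the mock mean was 2.91 ± 0.62 log2 in GFP-negative cells and 3.87 ± 0.62 in GFP-positive cells. The corresponding folds are 7.52 and 14.6. Among 16255 probe sets these were the 18th and the 9th highest differences. The limma fit over 4 groups, in which a lone array is assumed to vary like the mock and ABCG2 arrays, gave adjusted p = 0.0766 and 0.0191. So Hemgn passed in GFP-positive cells alone, and no test compared the 2 fractions.

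Klf1 stood at 0.86 in the GFP-negative fraction, just above the highest mock array at 0.75, and at 2.51 in the GFP-positive fraction. Its difference from mock was 0.91 ± 0.64 log2 in GFP-negative cells (limma, adjusted p = 0.473). In GFP-positive cells it was 2.55 ± 0.64 (5.86-fold), the 50th highest of all probe sets, and narrowly missed the threshold (adjusted p = 0.0513). Without the ABCG2 arrays in the fit the same Klf1 difference passed (adjusted p = 0.0351). It did not pass with quantile normalization (adjusted p = 0.120) or without mock replicate 1, 2 or 3 (adjusted p = 0.0751, 0.122 and 0.0575).

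Tal1 lay within the mock range in GFP-negative cells, at 0.38, and above it in GFP-positive cells, at 1.69. The difference was 0.34 ± 0.34 log2 in GFP-negative cells (limma, adjusted p = 0.612) and 1.65 ± 0.34 (3.14-fold) in GFP-positive cells (adjusted p = 0.0322). The GFP-positive call was lost with quantile normalization (1.37, adjusted p = 0.119), without mock replicate 1 (1.47, adjusted p = 0.0628) and without mock replicate 2 (1.63, adjusted p = 0.0947). Without mock replicate 2, Hemgn in GFP-positive cells was lost too (4.04, adjusted p = 0.0574), which left 0 of 4 members past the threshold.

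Nfe2 did not follow the other 3. Its differences from mock were 0.11 ± 0.24 and 0.14 ± 0.24 log2 in GFP-negative and GFP-positive cells (limma, adjusted p = 0.825 and 0.723). The 95% intervals, -0.46 to 0.68 and -0.44 to 0.71, do not hold a 2-fold difference in either direction. Their spread comes from the mock and ABCG2 arrays and does not measure how sorted EZH2-Mt marrow varies, so they cannot exclude such a difference. Past the threshold and higher were 0 of 4 members in GFP-negative cells (background 0.726% of probe sets) and 2 of 4 in GFP-positive cells (background 7.26%). Counted without a test, 3 of 4 members in GFP-negative cells and 4 of 4 in GFP-positive cells lay above every mock array, where 39.1% and 43.4% of all probe sets did.

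The 2 EZH2-Mt fractions were both sorted, so their difference is free of the contrast of sorted with unsorted cells, but with 1 array each it has no replicate check. These 2 arrays also differed in bacterial control transcripts, which measure array handling. The GFP-negative and GFP-positive medians were 0.93 and 2.20 for hybridisation controls and 1.79 and 3.50 for poly-A controls. The Gapdh 3′ minus 5′ difference was 0.09 and 0.35. The part of array handling in the differences below was not tested. GFP-positive exceeded GFP-negative cells by 1.64 log2 in Klf1, the 59th highest of 16255 probe sets, and by 1.30 in Tal1, the 186th highest. The Hemgn difference was 0.96 and that of Nfe2 0.03. Klf1 and Tal1 were therefore 2-fold or more higher, which 3.09% of all probe sets were, while Hemgn stayed below 2-fold and Nfe2 was level. With quantile normalization the Hemgn difference was 1.17, past 2-fold, which makes 3 of 4 members.

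Red cell genes were taken as a list of globin, heme, iron, membrane and other genes, 34 of 61 measured, with the 4 factors left out. The list was drawn up by name, and whether the factors act on its genes was not tested. In GFP-positive cells 22 of the 34 were 2-fold or more above the mock mean and 0 were as far below, with a median of 1.25 log2, against 4.33% of all 8378 genes above and a median of 0.06 over all genes. In GFP-negative cells 9 were above and 0 below, with a median of 0.63, against 2.46% and a median of 0.04. The largest differences in GFP-positive cells were those of Rhag (4.03), the Rh-associated membrane glycoprotein, Ermap (3.82), an erythroid adhesion protein, and Bpgm (3.82), which makes the hemoglobin effector 2,3-bisphosphoglycerate. The corresponding values in GFP-negative cells were 2.64, 2.27 and 3.13. Fech, the last enzyme of heme synthesis, followed at 2.87 with Ank1 (2.87), the red cell ankyrin; these red cell genes were picked for the size of their EZH2-Mt differences. Of the 34 genes 30 were higher in GFP-positive than in GFP-negative cells, with a median of 0.74. Over all genes 4276 of 8378 were higher, with a median of 0.01. Such a rise was not particular to red cell genes. Higher were also 15 of 21 neutrophil genes (median 0.81) and 7 of 10 B lineage genes (median 0.84). Of monocyte and macrophage genes 14 of 17 were higher, with a smaller median of 0.31. Fewer were higher among megakaryocyte and platelet genes (3 of 12), basophil, mast cell and eosinophil genes (2 of 7) and stem and progenitor genes (4 of 11). In bulk RNA, more cells of a type and more RNA per cell cannot be told apart.

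**Figure D3:**
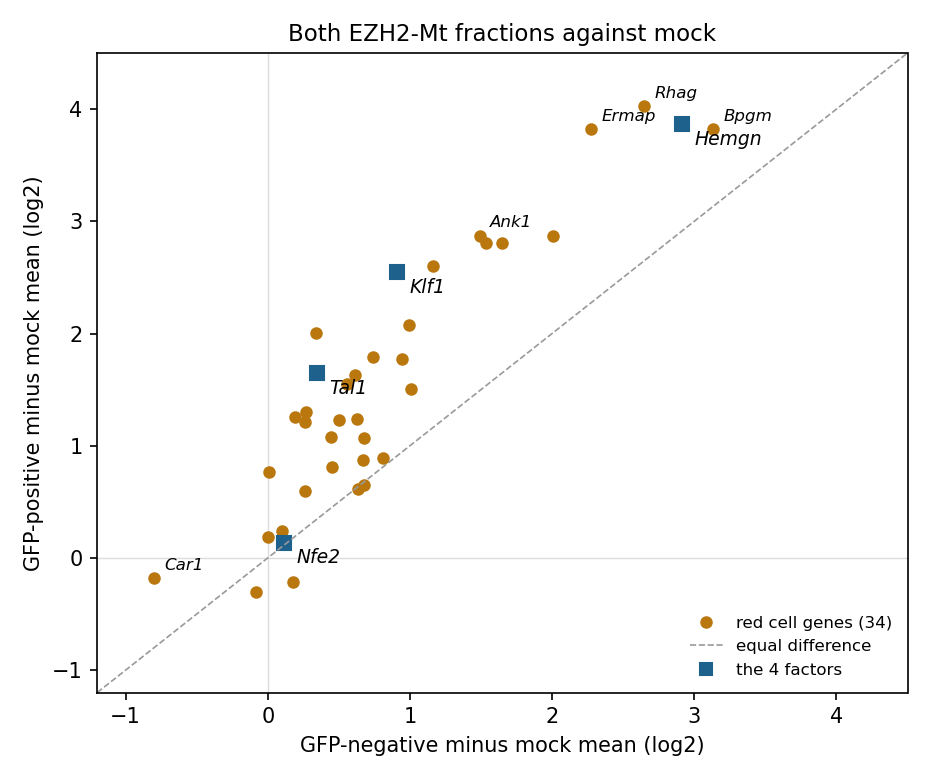
Difference from the mock mean in log2 in the GFP-negative (horizontal axis) and GFP-positive (vertical axis) EZH2-Mt fraction; circles are the 34 measured red cell genes, squares are the 4 factors, and the dashed line marks equal differences. Hemgn, at 2.91 and 3.87, lies beside Rhag, Ermap and Bpgm, Klf1 and Tal1 lie above the dashed line, and Nfe2 lies near 0.

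In ABCG2 marrow the same red cell list was split. Of 34 genes 11 rose and 8 fell (limma), with a median difference of 0.26, where 35.6% of all genes rose and 26.2% fell with a median of 0.15. The largest rises were those of peroxiredoxin Prdx2 (2.66), Bpgm (2.39), the porphyrin transporter Abcb6 (1.57) and the transferrin receptor Tfrc (1.54). The largest falls were in carbonic anhydrase Car1 (-2.65), the water channel Aqp1 (-1.46), adducin Add1 (-0.87) and Mkrn1 (-0.85). Without mock replicate 1 the list median was 0.02, and with quantile normalization 10 genes rose and 1 fell. That array was also the lowest of the 3 mock arrays for Klf1, Tal1 and Hemgn and had the lowest red cell median of the 7 arrays, -0.39, against -0.26 and -0.01 on the other mock arrays. The red cell medians were -0.05 and 0 on the ABCG2 arrays, 0.35 on the GFP-negative array and 1.02 on the GFP-positive array.

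The list of partners holds genes whose proteins bind these factors and other regulators of red cell transcription. Of 39 measured partner factors and cofactors (of 44 listed), 12 rose and 13 fell in ABCG2 marrow, with a median of 0.04, which is near the 35.6% and 26.2% of all genes that rose and fell. The E proteins that dimerise with Tal1 rose, Tcf3 by 2.14 ± 0.17 log2 and Tcf12 by 1.86 ± 0.14 (limma, adjusted p = 0.000116 and 9.33e-05). Lmo2, the bridge of the Tal1 complex, fell by 2.11 ± 0.14, and its scaffold Ldb1 rose by 1.86 ± 0.19 (adjusted p = 5.36e-05 and 0.000361). Zfpm1, the Gata1 cofactor also called Fog1, rose by 1.57, and the repressor Gfi1b fell by 0.90 (adjusted p = 0.000217 and 0.0381). Lyl1, a close relative of Tal1, and the corepressor Cbfa2t3 did not pass (0.28 and -0.05).

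Of the small Maf partners of Nfe2, Mafg fell by 1.83 ± 0.23 log2 (limma, adjusted p = 0.000754), with values of -1.40 and -2.17 on the ABCG2 arrays and 0 to 0.08 on mock arrays. Its 2 probe sets gave -0.89 and -2.77, both past the threshold. Mafk (0.40) and Maff (1.36) did not pass. Maff stood at 2.11 on the first and -0.24 on the second ABCG2 array, so the replicates disagreed. Bach1, which competes with Nfe2 for Maf partners and represses globin and heme genes, fell by 1.88 ± 0.29 (adjusted p = 0.00185). Bach2, its relative in B cells, had the largest rise of the list (3.47), followed by Ssbp3 (2.84) and the fetal globin repressor Bcl11a (2.37). The other large falls were in Spi1 (-2.80), which opposes Gata1 in myeloid cells, and E2f2 (-2.40), a cell cycle factor of maturing red cells. In the Nfe2 family, Nfe2l2 fell by 1.71 and Nfe2l1 rose by 0.68 (adjusted p = 0.000230 and 0.0367).

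In the EZH2-Mt fractions few partners were far from mock. The partner median was 0.17 log2 above the mock mean in GFP-negative cells, with 1 gene 2-fold or more higher and 0 lower, and 0.26 in GFP-positive cells, with 3 higher and 0 lower. Over all genes 2.46% and 4.33% were 2-fold or more higher in these fractions. The 3 were Zfpm1 (1.34), E2f2 (1.25) and Ssbp2 (1.21). Lmo2 stood at -0.23 from mock in GFP-positive cells, Mafg at 0.29, and Tcf3 at 0.35.

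**Figure D4:**
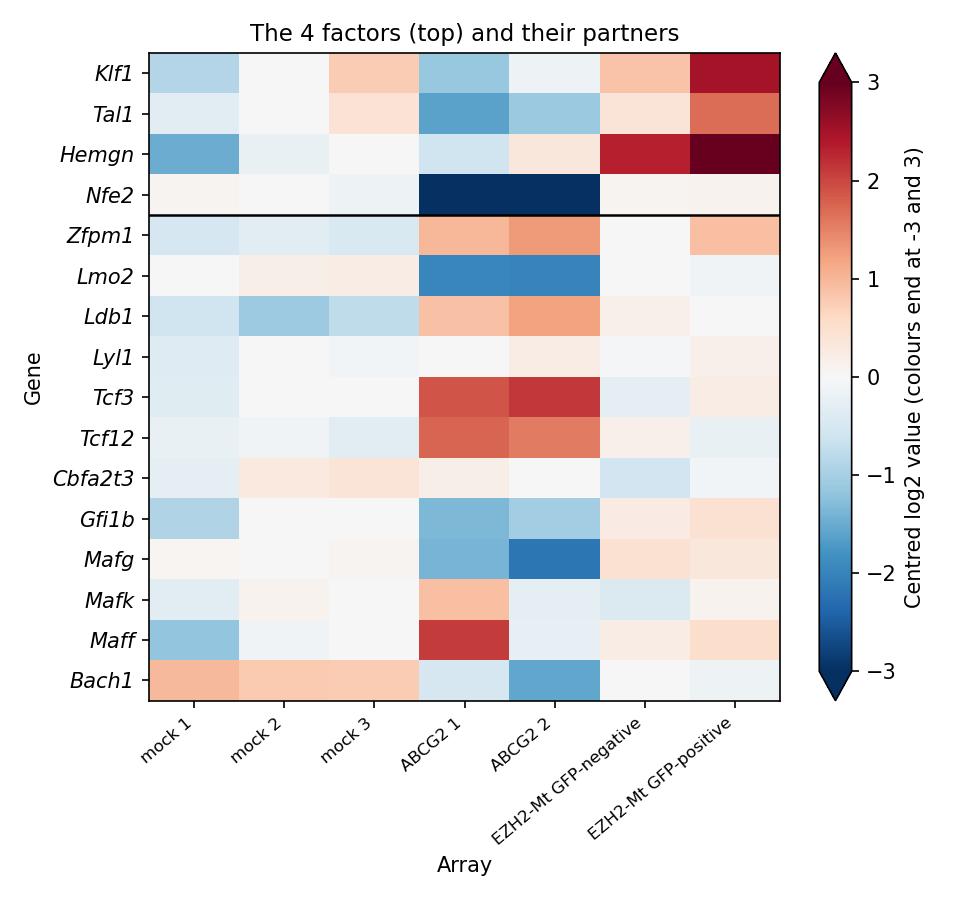
Centred log2 values (colour) of the 4 factors (above the line) and of 12 measured genes that bind them or share their complexes (rows) on the 7 arrays (columns). On the ABCG2 arrays Nfe2, Lmo2 and Mafg are low and Tcf3 and Tcf12 high, while on the GFP-positive array Hemgn, Klf1 and Tal1 stand out.

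Genes with the most similar profile to each factor were taken by Pearson correlation over the 7 arrays among the 8377 other genes. These values describe likeness of shape and not of size, and arrays of one group share their group's difference. For Nfe2 the nearest were the iron exporter Slc40a1 (r = 0.9997), Csgalnact2 (r = 0.9995), Megf9 (r = 0.999), the complement receptor C5ar1 (r = 0.998) and the annexin Anxa3 (r = 0.998), whose values on the ABCG2 arrays ran from -6.83 to -4.35. For Hemgn they were Dctn5 (r = 0.994), Tbc1d9b (r = 0.982), Cep76 (r = 0.981), Rhag (r = 0.974) and Ank1 (r = 0.972). Rhag, at 2.12 and 3.51 in the GFP-negative and GFP-positive fractions, also matched Hemgn in size, whereas Dctn5 stood at 0.31 and 0.47. For Klf1 they were the transporter Abcb4 (r = 0.980), the replication clamp Pcna (r = 0.978), Rpl38 (r = 0.971), Poc1a (r = 0.970) and the spindle factor Tpx2 (r = 0.966). Their highest value, that of Abcb4, was 1.30, against 2.51 for Klf1. For Tal1 they were Gpr107 (r = 0.993), Dnajc25 (r = 0.990), the glutathione peroxidase Gpx1 (r = 0.988), Tuba4a (r = 0.988) and the survival and mitosis gene Birc5 (r = 0.986).

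Markers of other marrow cells are given against the 35.6% of all genes that rose and the 26.2% that fell in ABCG2 marrow. On the ABCG2 arrays 21 of 21 measured neutrophil genes fell, with per-array medians of -4.73 and -6.05 against -0.20 to 0.06 on mock arrays, led by Mmp8 (-6.71), Mpo (-6.68), Ms4a3 (-6.26) and Clec4d (-6.20). Of 17 monocyte and macrophage genes 15 fell, led by F13a1 (-6.37), Fn1 (-6.23), Cd14 (-6.05) and Slc40a1 (-4.59). Of 12 megakaryocyte and platelet genes 9 fell and 0 rose, led by Thbs1 (-8.19), Cd9 (-3.29), Selp (-2.88) and Plek (-2.85). Basophil, mast cell and eosinophil genes fell in 5 of 7 cases, led by Mcpt8 (-6.03), Epx (-5.55), Hdc (-5.31) and Prg2 (-4.95), and Cpa3 rose (0.81). B lineage genes rose in 6 of 10 cases, led by Il7r (5.93), Ly6d (5.86), Spib (4.84) and Pou2af1 (4.28). Of 11 stem and progenitor genes 5 rose, led by Flt3 (2.84), Egfl7 (2.77), Sox4 (2.65) and Erg (1.94), and 2 fell, Angpt1 (-3.39) and Lmo2, counts near those shares. The part of cell composition in the Nfe2 and Tal1 falls was not tested.

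Of all 8378 genes, 206 were 2-fold or more above the mock mean and 178 as far below in GFP-negative cells. In GFP-positive cells 363 were above and 254 below. In GFP-negative cells the monocyte median was -1.29 log2 from mock with 9 of 17 genes 2-fold or more lower and 0 higher. The neutrophil median was 0.28 with 0 of 21 in either direction, and 3 of 7 basophil, mast cell and eosinophil genes were higher (median 0.45). B lineage genes had a median of 0.19 in GFP-negative cells, with 2 of 10 higher, and of 1.12 in GFP-positive cells, with 6 of 10 higher and 0 lower. In GFP-positive cells the neutrophil median was 0.99 log2 above mock with 10 of 21 genes 2-fold or more higher and 1 lower, the monocyte median was -0.75 with 8 of 17 lower and 2 higher, and the megakaryocyte median was -0.52 with 4 of 12 lower and 1 higher. Bacterial control transcripts, which measure array handling, were also high on these arrays. The median over 16 hybridisation controls was 0.93 on the GFP-negative and 2.20 on the GFP-positive array, against -0.01 to 0.01 on mock arrays and -0.31 and -0.43 on ABCG2 arrays. Over 24 poly-A controls it was 1.79 and 3.50 in the same order, -1.04 and -1.49 on ABCG2 arrays and 0 on each mock array after rounding. The difference of the 3′ from the 5′ probe set of beta-actin was 0.40 and 0.42 on ABCG2 arrays and 0.31 in GFP-positive cells, against -0.05 to 0.04 on mock arrays. For Gapdh it was -0.08 and -0.11 on ABCG2 arrays and 0.35 in GFP-positive cells, against -0.08 to 0.10 on mock arrays. The part of array handling in the high Hemgn, Klf1 and Tal1 values was not tested.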

How the data were processed

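Expression was measured on 7 Affymetrix Mouse430_2 arrays. The deposited values are normalized log2 values per probe set (per the file headers, kept where raw signal passed limits and every sample had a Present or Marginal call), so genes undetected on any array are not analysed here. The submitters' processing notes name MAS5, and scaling between arrays is not given in the sources used here. The log base is not stated and folds assume 2. Each of the 16309 probe sets had a median of 0 over the arrays. After 54 control probe sets were set apart, 16255 remained.

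ABCG2 was compared with mock by limma (3.58.1, R 4.3.3; lmFit, eBayes, two-sided) on the 5 unsorted arrays, and each EZH2-Mt fraction with mock in 1 fit over 4 groups, with Benjamini-Hochberg adjustment over all probe sets, or over all 8378 genes (means of their probe sets) for lists, at 0.05. The fits were run on simulated normal noise with known shifts. Lone arrays were given the spread of the mock and ABCG2 arrays there, so the simulation cannot check that assumption. The 2-fold threshold is 1 log2. Values after ± are standard errors unless named SD. For arrays, their number limits the precision. The members and gene lists were chosen with earlier results of these data known. Named were all members, measured binding partners, the 4 largest passing rises and falls of each list in ABCG2 minus mock, and the 5 genes most correlated with each member; further red cell and partner genes (Fech, Ank1, Rhag, Ermap, Ssbp2, Nfe2l1, Nfe2l2) were named after their values were seen. Alternatives were quantile normalization, array centring, array weights, robust eBayes, control probe sets kept, all arrays in 1 fit, a replicate block and leaving out arrays; those for red cell counts were chosen after seeing the data.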

Additional observations from a re-analysis of the deposited data

How the results depend on the processing

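The Nfe2 fall in ABCG2 marrow passed limma's threshold under all 12 alternatives, with differences from -3.97 to -1.85. These alternatives are not separate checks. All arrays in 1 fit, control probe sets kept and robust eBayes left the difference unchanged, and the replicate block repeated that without mock replicate 3. The Tal1 fall passed under 11 of 12, the exception being quantile normalization (-0.88), which reduced the members called from 2 to 1 in the probe set fit and in the gene fit. Quantile normalization also lowered the genes called over the whole array from 2983 higher and 2196 lower to 1428 and 1452, and raised Hemgn in GFP-negative cells to 3.74 (adjusted p = 0.0351), so that 1 of 4 members passed there against 0. In GFP-positive cells it left 1 member (Tal1 at 1.37 did not pass), and the red cell genes 2-fold or more higher in GFP-negative cells numbered 14. The Hemgn difference in ABCG2 marrow ran from -0.021 to 0.91 when 1 array was left out, reversing to -0.015 without mock replicate 1 and -0.021 without ABCG2 replicate 2. In GFP-positive cells, leaving out 1 array gave 0 to 3 members past the threshold, with Klf1 from 2.13 to 2.95, Tal1 from 1.47 to 1.85 and Hemgn from 3.41 to 4.15; Klf1 passed without either ABCG2 array or without both (2.55 each time, adjusted p = 0.0351). The causes were not tested.

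Mock and ABCG2 arrays share the numbers 1 and 2, which the labels tie to no litter or day. Deviations of same-numbered arrays correlated at 0.08 and -0.04. With 2 ABCG2 arrays, the deviations from their mean are mirror images. These values therefore cannot show whether same-numbered arrays share a litter or day. With the replicate block Hemgn passed in ABCG2 marrow (0.73, limma, adjusted p = 0.0378), while Nfe2 (-3.79) and Tal1 (-1.19) stayed past the threshold. Mock replicate 3 has no same-numbered ABCG2 array, so the block fit gives the same differences as leaving that array out. Without mock replicate 3 and without the block, the same Hemgn difference did not pass (limma, adjusted p = 0.283). The Hemgn call thus rests on a pairing of arrays that the labels do not give. The fit over all arrays equals the fit over 5 by construction, since lone arrays add no spread.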
